A study of Mus musculus with 283 samples.

Results

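Cytotoxic T cells and natural killer (NK) cells kill their targets with granules, and 7 genes of that machinery were followed through a panel of mouse mammary tumours treated with checkpoint antibodies. Prf1 encodes perforin, which forms pores in the target's membrane. Gzma, Gzmb, Gzmc and Gzmk encode granzymes, serine proteases that reach the inside of the target cell with the help of perforin. Nkg7 encodes a protein of the granule membrane, and Fasl encodes the ligand of the death receptor Fas. The members were taken by name from the tumour expression table, where they were 7 of 45657 gene entries kept. All 7 passed the filter on low values and were among the 20849 genes tested.

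Granule killing is a route by which cytotoxic lymphocytes destroy tumour cells on direct contact. Granzymes are made as inactive precursors, are trimmed in the granule and are released together with perforin at the contact site. Antibodies against PD1 and CTLA4, receptors that restrain T cells, are used to lift that restraint.

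RNA-seq was done on 264 libraries of tumours or normal glands and on 6 cultured lines. Into the peritoneum of treated mice went anti-CTLA4 (125 ug a dose) together with anti-PD1 (10 mg per kg), and untreated mice received none. Per the labels, tumours were transplanted orthotopically into syngeneic mice that entered an arm at a diameter of 5 mm, and were harvested at day 3, at day 7 or, by the label, at the end. That text stands on every sample, glands and primary tumours included. The 9 glands are named as mammary tissue of BALB/c or FVB mice in the table's header, some of them as pools, although their tissue label reads tumor. The models classed as sensitive were T11-UV, T11-Apobec, KPB25L, KPB25L-UV and KPB25L-Apobec, the last without a treated arm. Those classed as resistant were T11, p53-2225L and p53-2336R, which had treated arms, and KPB-1A, p53-2153F, p53-2224, p53-2224L and p53-9263-3, which did not. By their names T11-UV and T11-Apobec derive from the T11 line, and KPB25L-UV and KPB25L-Apobec from KPB25L. A transplanted model is 1 tumour line, so its mice repeat that line and not the class. For the KPB-1A, KPB-1B and KPB-Primary tumours the labels give K14-Cre with floxed Brca1 and p53, where a keratin promoter drives the recombinase in epithelium. For several p53 lines the exome labels give BALB/c p53-null. The models of unknown response used here are known from the labels by name: C3-TAG, PyMT (marked E2FWT), ILC-Pik3Ca/Cdh1Null, KPB-Primary, p53-2151 and p53-2245, all untreated at end stage. Genotypes of T11 and KPB25L, and the sex and age of the mice, are not stated in the labels.

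The 7-day set held 18 treated and 15 untreated tumours from 4 sensitive models, and T11, with 4 treated and 4 untreated, was the single resistant model with both arms. At 3 days the same 4 sensitive models gave 15 treated and 17 untreated tumours, and 3 resistant models gave 14 treated and 11 untreated. The end-stage set held 16 treated and 20 untreated tumours from sensitive models, and 13 treated and 18 untreated of resistant models. Levels are log2(signal + 1) of the signal as the authors scaled it, and 1 unit of difference is a factor of 2 for genes well above the pseudocount. The libraries held between 3.45 and 149.12 M estimated reads (M, mega), with a median of 51.29 M. Transcripts that mark the T11 line had a mean level of 6.22 to 8.35 in 6 libraries labelled KPB25L-UV, against 1.62 to 3.28 in the other 21. In 4 of those 6 (treated replicate 5 and untreated replicates 3 and 4 at 7 days, and untreated replicate 2 at end stage) transcripts that mark KPB25L stood at 2.19 to 2.98, against 7.92 to 10.39 in KPB25L and KPB25L-Apobec, so these 4 go against their label. The other 2, treated replicate 1 at 7 days and untreated replicate 3 at 3 days, held both sets, with KPB25L transcripts at 8.68 and 9.39. The 6 libraries were kept under their labels. How the calls changed without them is given below, while ranges and overlaps stated for KPB25L-UV include them. The labels also give 4 mouse numbers both to the treated T11-UV tumours at 7 days and to the treated KPB25L-UV tumours at end stage. The line transcripts went with the labelled line in all of these, at 7.69 to 8.43 for T11 and 1.62 to 2.96 for KPB25L in the T11-UV tumours, and at 1.62 to 2.82 for T11 and 9.0 to 10.36 for KPB25L in the KPB25L-UV tumours. The table's header calls the untreated 3-day tumours pretreatment, and the labels were followed. If the header is right, treated and untreated 3-day tumours also differed in time since entry into an arm. That time and therapy then cannot be told apart in comparisons that use the untreated 3-day tumours.

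The members lie on 5 chromosomes of GRCm38. Gzmb (chr14:56258838-56262260) and Gzmc (chr14:56231441-56234656) stand in a cluster on the minus strand of chromosome 14 with Gzmd, Gzme, Gzmf, Gzmg and Gzmn, a run of granzymes found in rodents. Gzma (chr13:113093825-113100981) and Gzmk (chr13:113171608-113225908) are neighbours on the minus strand of chromosome 13. Prf1 is at chr10:61297833-61304680 and Nkg7 at chr7:43437073-43438249, both on the plus strand, and Fasl is at chr1:161780689-161788495 on the minus strand. The 250 bases before the RefSeq start (GRCm38.p6) are shown for Gzmb, Gzmc, Prf1 and Gzma, whose levels the results turn on, and for Gzmd, the gene whose level followed Gzmc most closely. Each is written 5′ to 3′ on the gene's strand, and capitals mark matches to the motifs named after the sequences. The Gzmb window is chr14:56262335-56262584 and that of Gzmc is chr14:56234658-56234907. Those of Gzmd, Prf1 and Gzma are chr14:56132594-56132843, chr10:61297586-61297835 and chr13:113100982-113101231.
Gzmb: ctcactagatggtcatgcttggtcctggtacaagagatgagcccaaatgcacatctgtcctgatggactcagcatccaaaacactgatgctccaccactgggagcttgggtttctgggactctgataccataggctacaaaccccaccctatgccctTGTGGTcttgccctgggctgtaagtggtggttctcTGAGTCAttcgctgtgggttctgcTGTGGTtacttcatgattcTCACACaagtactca
Gzmc: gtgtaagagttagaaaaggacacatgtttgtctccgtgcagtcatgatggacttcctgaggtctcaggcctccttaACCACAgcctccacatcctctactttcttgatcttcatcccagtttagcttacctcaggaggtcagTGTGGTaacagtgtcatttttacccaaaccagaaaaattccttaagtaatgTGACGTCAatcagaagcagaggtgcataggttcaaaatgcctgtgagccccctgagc
Gzmd: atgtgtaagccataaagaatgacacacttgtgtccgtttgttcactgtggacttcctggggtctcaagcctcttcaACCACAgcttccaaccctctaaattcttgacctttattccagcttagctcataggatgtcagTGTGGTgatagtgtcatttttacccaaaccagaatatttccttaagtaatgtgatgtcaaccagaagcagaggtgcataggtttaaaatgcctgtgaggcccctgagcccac
Prf1: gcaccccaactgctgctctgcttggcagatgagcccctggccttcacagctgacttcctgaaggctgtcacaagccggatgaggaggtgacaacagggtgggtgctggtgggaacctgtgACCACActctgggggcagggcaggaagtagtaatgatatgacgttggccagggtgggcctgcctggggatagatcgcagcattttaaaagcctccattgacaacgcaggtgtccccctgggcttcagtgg
Gzma: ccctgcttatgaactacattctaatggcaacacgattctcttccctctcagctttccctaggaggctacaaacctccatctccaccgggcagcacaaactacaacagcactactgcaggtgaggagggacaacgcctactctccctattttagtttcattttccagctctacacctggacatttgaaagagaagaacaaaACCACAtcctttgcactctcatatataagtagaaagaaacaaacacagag

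The motifs searched on both strands were TGTGGT for RUNX, TGACGTCA for the cAMP response element (CRE), TGANTCA for AP-1, TCACAC for T-box factors and TTCNNNGAA for STAT, none of which overlapped another in the windows shown. The RUNX letters stood in the windows of 5 of 7 members, Gzma, Gzmb, Gzmc, Prf1 and Nkg7, and in 14% of 32851 promoters of the same length. They also stood in Gzmd, Gzme, Gzmf and Gzmg. The CRE letters stood in Gzmc, Gzmf and Gzmg and in 1.55% of all promoters, and the AP-1 letters in Gzmb alone among the members and in 6.75% of all. The T-box letters were found in Gzmb, Gzmk and Nkg7 and in 12.3% of all, and the STAT letters in Nkg7 and in 7.02% of all. The Gzmc and Gzmd windows were identical at 81.3% of aligned bases, against 47.9% for Gzmc and Gzmb. A match of letters is a description of the window and not a site.

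After 7 days of therapy all 7 members were higher in treated than in untreated tumours of the sensitive models, by 2.04 to 3.03 log2 units. The rise was called in limma's fit across all genes, with Benjamini-Hochberg adjustment at 0.05, for 7 of 7 members, while 15.5% of all genes tested were called higher and 21.2% lower. The median over the members was 2.81, against -0.07 over all genes tested. In bulk tissue a change in the number of cells of a type and a change in RNA per cell cannot be told apart.

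Prf1, the pore former, averaged 8.95 in treated and 5.93 in untreated tumours of the 4 sensitive models, a difference of 3.01 ± 0.53 (SE, adjusted p = 2.88e-06). In T11-UV it stood at 10.40, 9.10, 8.49 and 8.91 in treated tumours and at 4.39, 4.35, 4.24 and 3.99 in untreated ones. In T11-Apobec it was 9.75, 10.21, 12.56 and 9.60 in treated and 7.69 to 8.64 in untreated tumours. The arms did not overlap in either T11 derivative. In KPB25L the values were 7.93, 6.86, 5.56 and 6.46 in treated and 2.15, 4.62 and 6.46 in untreated tumours, and in KPB25L-UV they spanned 5.69 to 12.41 in 6 treated and 4.37 to 9.84 in 4 untreated tumours. The arms overlapped in both. T11 itself was low in both arms, at 3.11, 3.48, 2.14 and 4.15 in treated and 3.25, 3.16, 3.78 and 3.39 in untreated tumours.

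Gzma, a tryptase among granzymes, averaged 9.40 in treated and 6.81 in untreated tumours of the sensitive models, a difference of 2.59 ± 0.55 (adjusted p = 9.59e-05). In T11-UV its values were 12.13, 10.33, 12.74 and 10.57 in treated and 9.47, 6.72, 6.80 and 6.85 in untreated tumours. In T11-Apobec they were 11.42, 9.98, 12.53 and 11.02 in treated and 9.23, 9.11, 8.75 and 9.23 in untreated tumours. Untreated T11-UV replicate 1 stood apart from the other untreated tumours at 9.47 and was still below every treated one. KPB25L, with 5.16 to 7.60 in treated and 2.41 to 6.17 in untreated tumours, and KPB25L-UV, with 6.58 to 10.27 in treated and 3.51 to 8.95 in untreated tumours, overlapped.

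Gzmb, the granzyme that cleaves after aspartate and activates caspases, averaged 10.73 in treated and 7.92 in untreated tumours, a difference of 2.81 ± 0.53 (adjusted p = 1.18e-05). Its T11-UV values were 12.39, 11.37, 12.42 and 11.54 in treated tumours, against 8.77, 6.39, 7.28 and 6.09 in untreated tumours. The T11-Apobec values were 12.65, 11.91, 13.65 and 12.10 in treated tumours, against 9.70, 9.15, 8.78 and 9.31 in untreated tumours. Neither pair of arms overlapped, and T11-Apobec had the highest group mean of Gzmb in the series, 12.58. In KPB25L the treated tumours spanned 7.11 to 9.35 and the untreated ones 3.71 to 8.24, an overlap.

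Gzmc, a granzyme of the chromosome 14 cluster, averaged 10.45 in treated and 7.76 in untreated tumours, a difference of 2.69 ± 0.57 (adjusted p = 8.8e-05). In T11-UV treated tumours it stood at 12.74, 9.61, 12.87 and 9.35, against 7.93, 5.46, 5.06 and 5.15 in untreated ones, and in T11-Apobec treated tumours at 12.59, 9.90, 13.37 and 10.51, against 8.09, 7.79, 7.68 and 7.24 in untreated ones. In both lines replicates 1 and 3 were the highest of the treated tumours, and all treated tumours lay above all untreated ones. The 6 treated KPB25L-UV tumours had 13.78, 6.21, 8.62, 3.53, 13.89 and 9.71, which reached both above and below the 9.08, 8.31, 9.34 and 9.26 of the untreated ones. Replicates 1 and 5, the 2 highest, were among the 6 libraries with T11 transcripts, and without those libraries the difference over the sensitive models was 2.19 ± 0.56 (adjusted p = 0.00115). Of the 50-base stretches of Gzmc's exons, 4.14% also occur in Gzmd, Gzme or Gzmg, so that a part of its reads could be split among these genes, whereas the other members shared none.

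Gzmk, a granzyme of the tryptase kind, averaged 5.63 in treated and 2.59 in untreated tumours, a difference of 3.03 ± 0.38 (adjusted p = 1.9e-10). The difference was 4.94 in T11-UV and 4.21 in T11-Apobec, against 1.21 in KPB25L and 1.77 in KPB25L-UV. T11-UV treated tumours had 8.97, 7.82, 9.08 and 7.64 and untreated ones 5.25, 2.65, 4.11 and 1.74. T11-Apobec treated tumours had 9.30, 9.25, 9.05 and 8.33 and untreated ones 5.02, 4.70, 4.92 and 4.44. The arms were apart in both lines. KPB25L tumours were close to the floor, at 1.03, 0.00, 2.79 and 2.11 in treated and 0.00, 0.83 and 0.00 in untreated tumours. In KPB25L-UV treated tumours Gzmk ran from 0.00 to 6.17 and in untreated ones from 0.00 to 2.87.

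Nkg7, the granule membrane protein, averaged 10.47 in treated and 7.61 in untreated tumours, a difference of 2.85 ± 0.47 (adjusted p = 5.52e-07). Its treated T11-Apobec values lay close together, at 11.74, 11.32, 11.19 and 11.35, against 8.92, 8.42, 8.47 and 8.28 in untreated tumours. In T11-UV they were 11.35, 10.30, 11.54 and 10.11 in treated and 9.15, 6.64, 6.55 and 6.22 in untreated tumours. Fasl, the death ligand, had the smallest difference, 2.04 ± 0.38, with 7.01 in treated and 4.97 in untreated tumours (adjusted p = 1e-05). Its T11-UV values were 6.91, 6.98, 6.56 and 7.19 in treated and 5.74, 4.07, 3.63 and 4.12 in untreated tumours, and the T11-Apobec values were 7.55, 8.20, 7.87 and 7.62 in treated and 6.19, 5.86, 5.55 and 5.53 in untreated tumours. For both genes the arms were apart in the T11 derivatives and overlapped in KPB25L and KPB25L-UV.

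**Figure D1:**
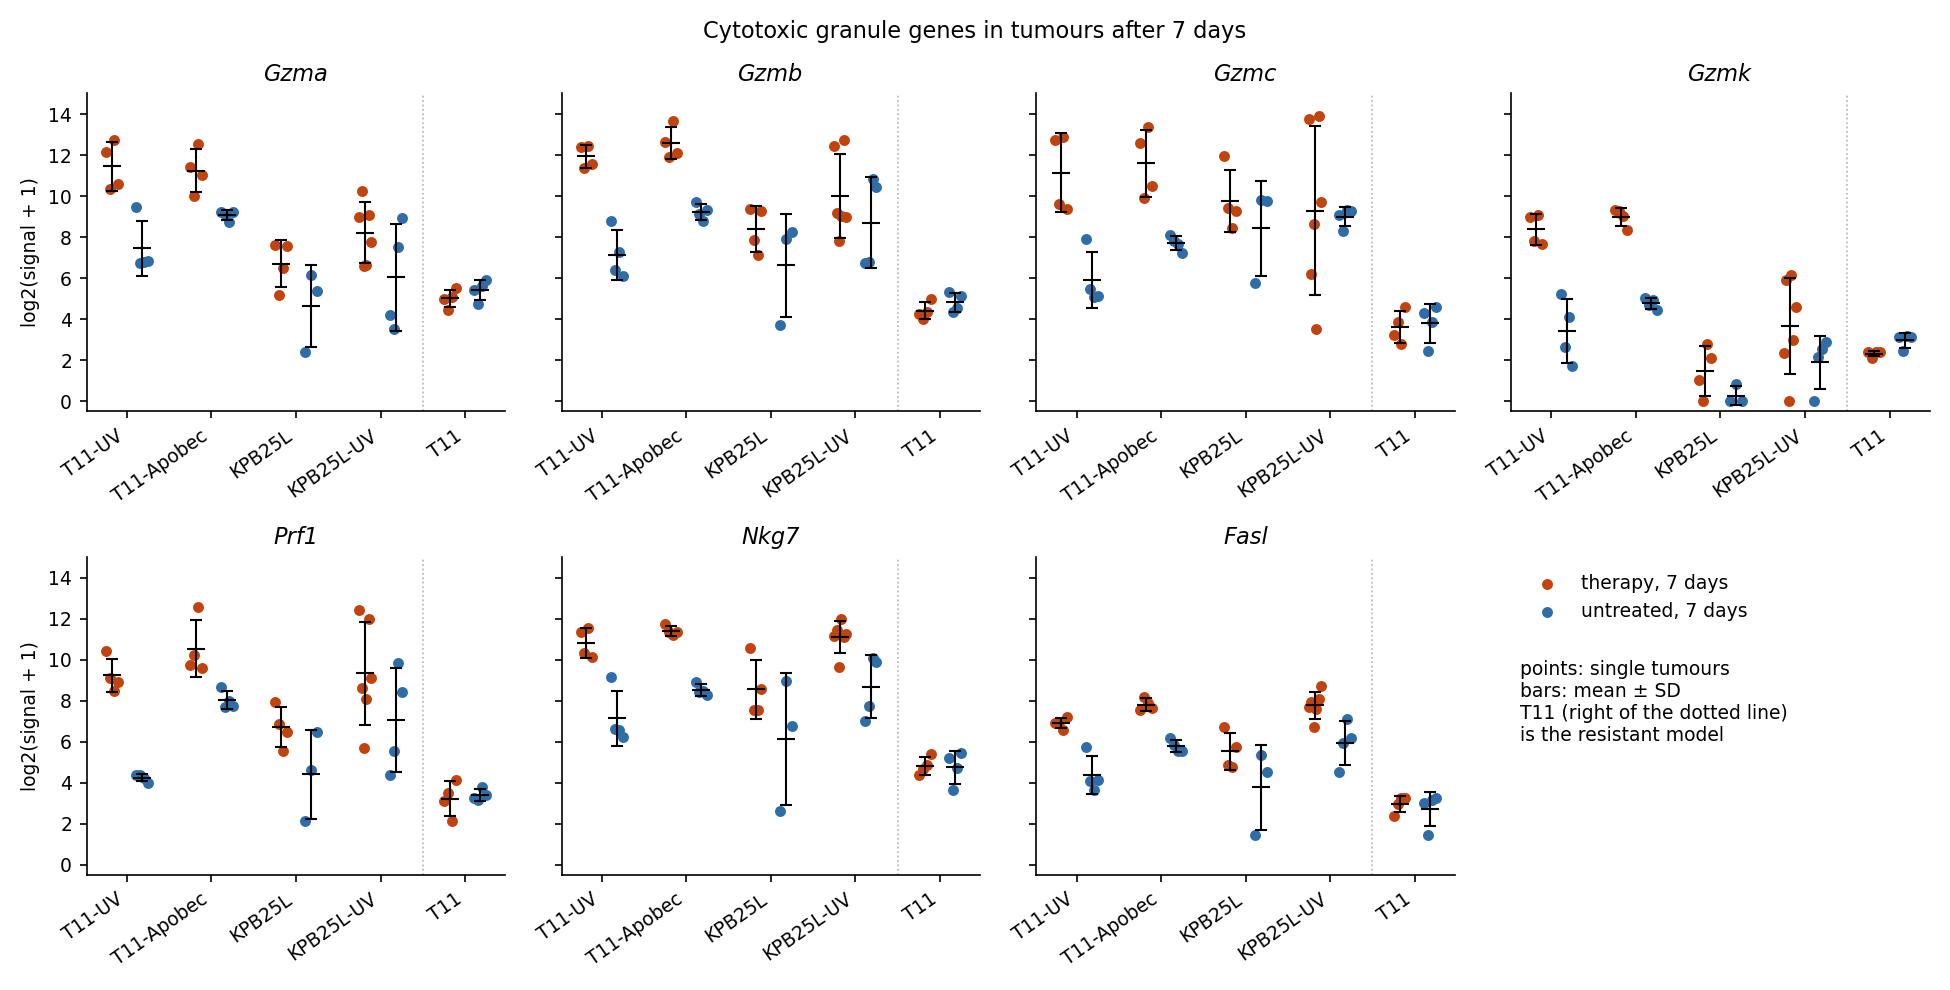
Level of each granule gene, as log2(signal + 1), in single tumours after 7 days, by model and arm, with bars for the mean ± SD. Treated tumours of T11-UV and T11-Apobec lie above every untreated tumour for all 7 genes, while T11, right of the dotted line, is low in both arms.

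Taken model by model in the same fit, 7 of 7 members were called higher in T11-UV (4.31% of all genes) and 5 of 7 in T11-Apobec (13.7%), where Prf1 at 2.51 (adjusted p = 0.0607) and Gzma at 2.15 (adjusted p = 0.126) missed the threshold. In KPB25L-UV Nkg7 at 2.41 and Fasl at 1.85 were called (8%). In KPB25L none was called, with differences of 1.21 to 2.43, where 0% of all genes were called. Every treated tumour exceeded every untreated one for 7 of 7 members in T11-UV, where this held for 6.08% of all genes, and in T11-Apobec, where it held for 22.2%. Both arms of T11-Apobec, KPB25L, KPB25L-UV and T11 came from 1 flow cell each. In T11-UV the treated and untreated libraries came from different flow cells, and with a flow cell term none of the members was called there, at differences of 1.91 to 7.13. Over the 4 sensitive models that term left all 7 called, at 1.88 to 3.16.

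In T11, the parental line classed as resistant, none of the members was called at 7 days, nor was any other gene (0%), although 61 genes had an unadjusted p under 0.05. The differences were -0.17 ± 1.06 for Prf1, -0.42 ± 1.10 for Gzma, -0.42 ± 1.06 for Gzmb, -0.17 ± 1.13 for Gzmc, 0.07 ± 0.93 for Nkg7 and 0.23 ± 0.76 for Fasl. Gzmk was 2.39, 2.13, 2.40 and 2.38 in treated and 3.12, 2.44, 3.16 and 3.13 in untreated tumours, so that every treated tumour was below every untreated one, which 1.74% of all genes showed. Its difference of -0.64 ± 0.76 was not called.

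Whether therapy moved a member more in a derivative than in T11 was tested as an interaction, and the comparisons share the T11 tumours. Gzmk passed in both, with 5.58 ± 1.07 for T11-UV (adjusted p = 0.00303) and 4.86 ± 1.07 for T11-Apobec (adjusted p = 0.00242), where 0.427% and 2.85% of all genes were called higher. With a flow cell term the T11-UV value was 4.03 (adjusted p = 0.363) and that of T11-Apobec 4.86 (adjusted p = 0.0024), and with a pseudocount of 0.1 neither was called. The other 6 members were not called, at 2.28 to 5.41 in T11-UV and 1.80 to 4.06 in T11-Apobec. Over the 4 sensitive models against T11 no member passed either. The nearest was Gzmk at 3.67 ± 0.84 (adjusted p = 0.0628), and the others lay between 1.80 ± 0.85 for Fasl and 3.23 ± 1.18 for Gzmb. Of all genes 0.0048% passed that test. Without the 6 libraries with T11 transcripts Gzmk passed, at 4.00 ± 0.85 (adjusted p = 0.0332).

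Genes of the T cell receptor complex rose in the same tumours. All 6 T cell markers (Cd3d, Cd3e, Cd3g, Cd2, Cd5, Cd6) were called higher in treated tumours of the sensitive models, at 2.18 to 2.80, as were Cd8a at 2.81 and Cd8b1 at 2.87. Of the NK markers 4 of 4 tested were called, Klre1 at 1.5 ± 0.38, Klri2 at 1.42 ± 0.38, Ncr1, an activating receptor of NK cells, at 1.11 ± 0.46 and Klrb1c at 0.90 ± 0.36. Markers of other cells moved as well. Cd4 was called higher at 1.62 ± 0.26, as were the B cell genes Ms4a1 at 1.58 and Cd79a at 1.41 (2 of 3) and the macrophage genes C1qa at 0.98, Cd68 at 0.93 and Csf1r at 0.39 (3 of 4). The basophil protease Mcpt8 at 1.16 ± 0.45 and Bst2, 1 of 3 plasmacytoid dendritic cell markers, at 1.18 ± 0.24 were also called higher, and 2 of 3 fibroblast genes, Col3a1 at -0.70 and Pdgfrb at -0.46, were called lower. None of 6 mast cell, 4 neutrophil, 5 epithelial, 2 endothelial and 2 fat cell markers was called. The part of these cells in the members' rise was not tested. The comparison with Cd3 that follows sets the members against T cell genes that rose in the same tumours. It cannot separate cell number from RNA per cell. In T11-UV the summed T cell markers stood at 11.41 to 12.01 in treated and 7.56 to 9.95 in untreated tumours, and in T11 at 6.32 to 8.04 in treated and 6.05 to 7.15 in untreated tumours.

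When the mean of Cd3d, Cd3e and Cd3g of the same library was subtracted, no member was called between treated and untreated tumours of the sensitive models. The differences were 0.31 ± 0.51 for Prf1, -0.11 ± 0.42 for Gzma, 0.11 ± 0.45 for Gzmb, -0.01 ± 0.58 for Gzmc, 0.33 ± 0.41 for Gzmk, 0.15 ± 0.30 for Nkg7 and -0.66 ± 0.39 for Fasl. On the same scale 98.5% of all genes were called lower, with 0.0672% called higher. In T11 the 7 values were -1.44 to -0.56, and none was called. Gzmb relative to Cd3 lay at 2.21 to 2.75 in treated and 0.72 to 1.48 in untreated T11-UV tumours, whose arms came from different flow cells. The share of all genes apart in that way on this scale is not reported here. In KPB25L-UV Gzmb relative to Cd3 was -2.62 to 2.37 in treated and -0.48 to 1.53 in untreated tumours, so treated KPB25L-UV tumours with much Cd3 did not all have much Gzmb.

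**Figure D2:**
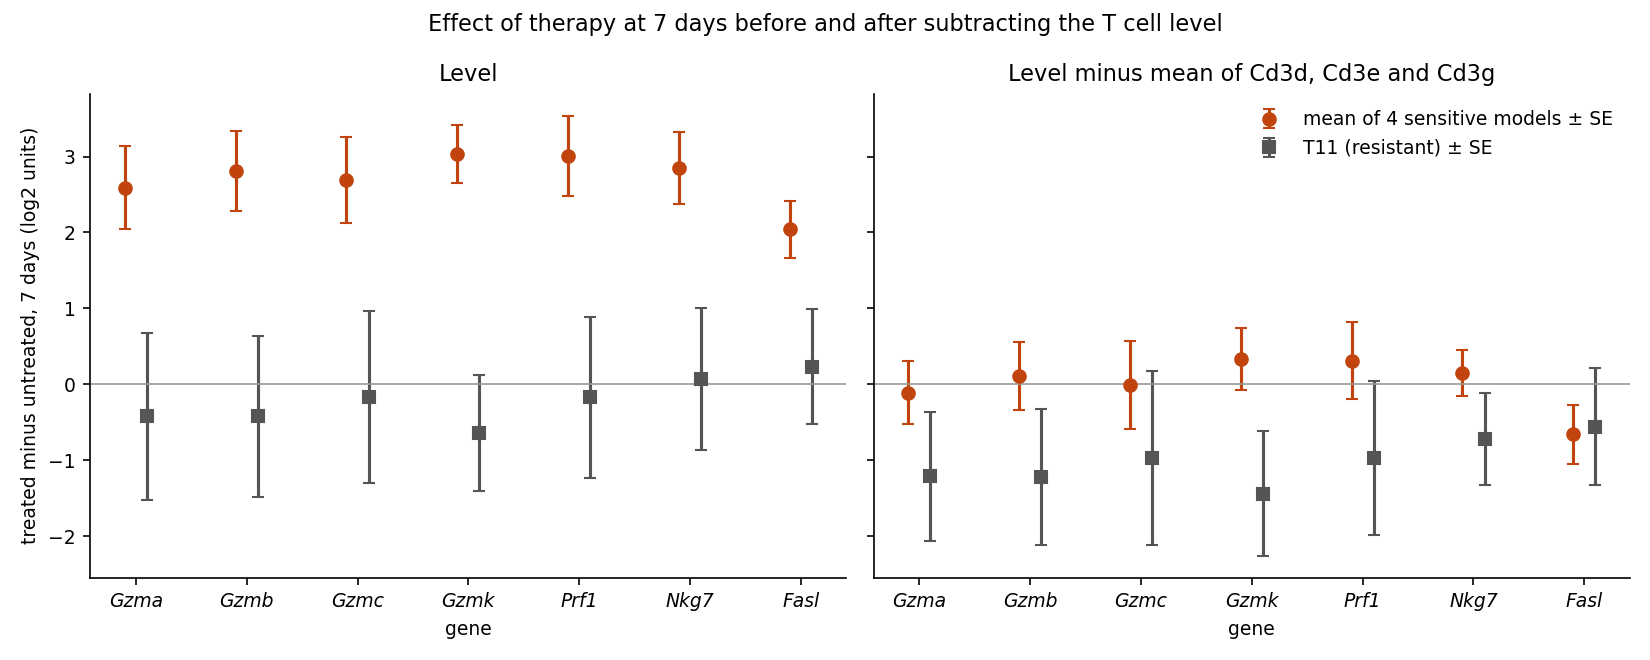
Difference between treated and untreated tumours at 7 days for each gene, as log2 level on the left and after subtraction of the mean level of Cd3d, Cd3e and Cd3g on the right, with SE bars, for the mean of 4 sensitive models and for T11. Values of 2.04 to 3.03 in the sensitive models on the left become -0.66 to 0.33 on the right.

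Among the other granzymes 4 of 5 tested were called higher at 7 days in the sensitive models, and their differences were larger than those of any member. Gzmg had 5.74 ± 0.77, Gzmf 5.47 ± 0.76, Gzmd 4.58 ± 0.69 and Gzme 3.96 ± 0.57, while Gzmm, an NK granzyme from outside the cluster, had 0.12 ± 0.21. In T11-Apobec Gzmg was 13.94, 11.04, 14.83 and 11.06 in treated tumours, against 4.82, 6.49, 7.33 and 5.47 in untreated tumours. In T11 it was listed at 0 in all 8 tumours. Of their 50-base exon stretches 21.9% in Gzmd, 20.6% in Gzme, 19.8% in Gzmg and 7.36% in Gzmf also occur in other genes of the cluster, so these 4 values are uncertain as to how reads were split among them. After subtraction of the Cd3 level the same 4 were still called higher, where 0.0672% of all genes were.

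Of the genes for granule assembly and release 9 of 11 tested were called higher and 2 lower, with a median of 0.93. Those with the smallest adjusted p were Cst7, an inhibitor of granule cathepsins, at 3.06 ± 0.38, the lysosome membrane protein Lamp1 at 0.47 ± 0.06, Rab27a, which docks granules, at 0.93 ± 0.15 and Stxbp2, which serves their fusion, at 0.98 ± 0.16. Lyst at -1.12 ± 0.39 and Ap3b1 at -0.34 ± 0.12, genes of granule biogenesis, were lower. Of the serpins 4 of 5 were called higher, Serpinb9, which blocks granzyme B, at 0.90 ± 0.15, Serpinb9b at 2.00 ± 0.35, Serpina3g at 2.21 ± 0.41 and Serpinb6b at 1.31 ± 0.26. Serpinb6a had 0.01 ± 0.10.

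In the death receptor pathway 3 genes were called higher. Fas, the receptor of Fasl, was at 0.95 ± 0.17, the adaptor Fadd at 0.37 ± 0.08 and the ligand Tnfsf10 at 1.02 ± 0.29. The caspase Casp8 at -0.25 ± 0.10 and the receptor Tnfrsf10b at -0.29 ± 0.09 were called lower, and Cflar at 0.19 and Bid at -0.07 were not called. Of the regulators of cytotoxic genes 7 of 11 were called higher, those with the smallest adjusted p being Id2 at 1.40 ± 0.19, Tbx21, which encodes T-bet, at 2.57 ± 0.37, Stat4 at 1.92 ± 0.29 and Batf at 1.07 ± 0.18. Of 8 effector cytokines 7 were called higher. Ifng was at 3.15 ± 0.55, Ccl5 at 2.33 ± 0.35, Il2 at 1.60 ± 0.34, Ccl4 at 1.58 ± 0.38, Tnf at 1.23 ± 0.25, Ccl3 at 1.16 ± 0.35 and Csf2 at 1.01 ± 0.39, while Xcl1 at 0.96 ± 0.50 was not called. In T11 no gene of any of these lists was called.

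At 3 days 4 of 7 members were called higher in treated tumours of the sensitive models, with 6.93% of all genes called higher and 6.92% lower. They were the granzymes, Gzma at 2.60 ± 0.56 (adjusted p = 0.00291), Gzmb at 2.01 ± 0.54 (0.0117), Gzmc at 2.15 ± 0.58 (0.0121) and Gzmk at 1.10 ± 0.38 (0.0412). Nkg7 at 1.24 ± 0.47, Prf1 at 0.90 ± 0.54 and Fasl at 0.85 ± 0.39 were not called. The 4 calls were lost when a flow cell term was added, where Gzma kept 1.99 (adjusted p = 0.0519), and when the groups compared alone set the spread, where it kept 2.60 (adjusted p = 0.0568). In the resistant models the differences were 0.63 to 1.44 and none was called, as for all genes (0%), although 461 genes had an unadjusted p under 0.05. The difference between the classes was -0.20 to 1.53 and not called for any member.

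The single models had different values at 3 days, a difference that was not tested. In KPB25L 5 of 7 members were called higher (8.7% of all genes, with 5.67% lower), Gzma at 5.69, Gzmb at 3.81, Nkg7 at 3.29, Prf1 at 2.79 and Fasl at 2.74. Of its 5 treated tumours 3 were high and 2 were near the untreated ones. Gzma was 3.41, 10.68, 4.55, 14.10 and 14.02 in treated tumours, against 2.93, 3.86, 2.26, 3.54 and 5.74 in untreated ones, and Gzmb was 7.00, 10.56, 6.41, 14.54 and 14.60, against 6.53, 4.73, 6.69, 8.26 and 7.87. The tumours with 14.10 and 14.02 held the highest Gzma levels of the whole series. The same 3 tumours were high in Ncr1, with 8.84, 10.48 and 9.77 against 4.94 and 5.78 in the other treated ones, and in the mast cell protease Cpa3, with 11.05, 9.86 and 9.96 against 5.59 and 5.29. T cell RNA varied among the treated tumours as well, with Cd3e at 4.21 to 9.46 and a median of 9.13. Ncr1 and Cpa3 are single markers, and the part of any cell type was not tested. The treated KPB25L libraries came from 3 flow cells, and with a flow cell term none of the 5 was called.

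In T11-UV at 3 days Gzmk alone was called, at 3.65 ± 0.82, with 6.65% of all genes called higher and 7.44% lower, and its values were 7.49, 3.60 and 8.20 in treated and 3.29, 1.88, 2.66 and 3.30 in untreated tumours. T11-Apobec had no call, at 0.60 to 4.10 (0.0767% of all genes called higher), yet Gzma, Gzmb and Gzmc did not overlap between its arms, which 5.4% of all genes showed. Gzmc there was 12.81, 12.67, 11.05 and 10.90 in treated and 8.95, 8.22, 7.11 and 6.77 in untreated tumours. In KPB25L-UV all 7 differences were below 0, at -1.53 to -0.04, and none was called. Every treated tumour there was below every untreated one in Fasl, at 4.19 to 4.67 in treated and 4.92 to 7.30 in untreated tumours, which 2.19% of all genes showed.

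At end stage no member was called between treated and untreated tumours of the sensitive models, at -0.58 to 1.10, where 0% of all genes were called higher and 0.0288% lower. In the resistant models the differences were 0.17 to 1.26 and none was called (0%). Gzmk was the member nearest to a rise in both, at 1.10 ± 0.36 and 1.26 ± 0.40. In T11 its treated values of 2.56, 4.92, 4.28, 3.56 and 3.11 all exceeded the untreated 2.32, 0.00, 2.04, 0.00 and 1.90, which 0.326% of all genes did. The arms were apart in the same direction in T11-UV, with 3.55 to 5.45 in treated and 1.13 to 2.66 in untreated tumours (1.6% of all genes), although its 2.51 was not called (0.0719% of all genes called higher, 0.484% lower), and T11-Apobec treated tumours were at or above 3.86 (0.954%). At end stage the treated and untreated libraries of T11-UV, of T11-Apobec and of KPB25L-UV shared no flow cell. Within each of these models therapy and flow cell cannot be told apart at that time.

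The effect of therapy was smaller at end stage than at 7 days for all 7 members, a difference of effects that was called lower for 6.5% of all genes and higher for 4.68%. It was -2.88 ± 0.74 for Prf1, -3.16 ± 0.76 for Gzma, -2.37 ± 0.73 for Gzmb, -3.27 ± 0.79 for Gzmc, -1.93 ± 0.53 for Gzmk, -2.61 ± 0.65 for Nkg7 and -1.90 ± 0.53 for Fasl. The difference between the 7-day and 3-day effects was not called for any member, at -0.01 to 2.11 (0.504% of all genes called higher). Within treated tumours the 7-day levels of Prf1, Gzmk, Nkg7 and Fasl were higher than the 3-day ones, by 1.72, 1.90, 1.45 and 1.41 (3.13% of all genes), and Gzma at 0.23, Gzmb at 0.93 and Gzmc at 0.83 were not called. From 7 days to end stage all 7 fell in treated tumours, by 2.66 to 5.08 (23.9% of all genes), Gzma by the most. In untreated tumours Gzma, Gzmb, Nkg7 and Fasl also fell over that time, by 1.92, 1.56, 1.56 and 1.28 (5.4% of all genes), but none of these 4 calls was left without the 6 libraries with T11 transcripts. Within either arm of each of these models, 7-day and end-stage libraries shared no flow cell. Nor did the treated 3-day and 7-day libraries of T11-Apobec and of KPB25L. Within a model, time and flow cell cannot be told apart in these comparisons.

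**Figure D3:**
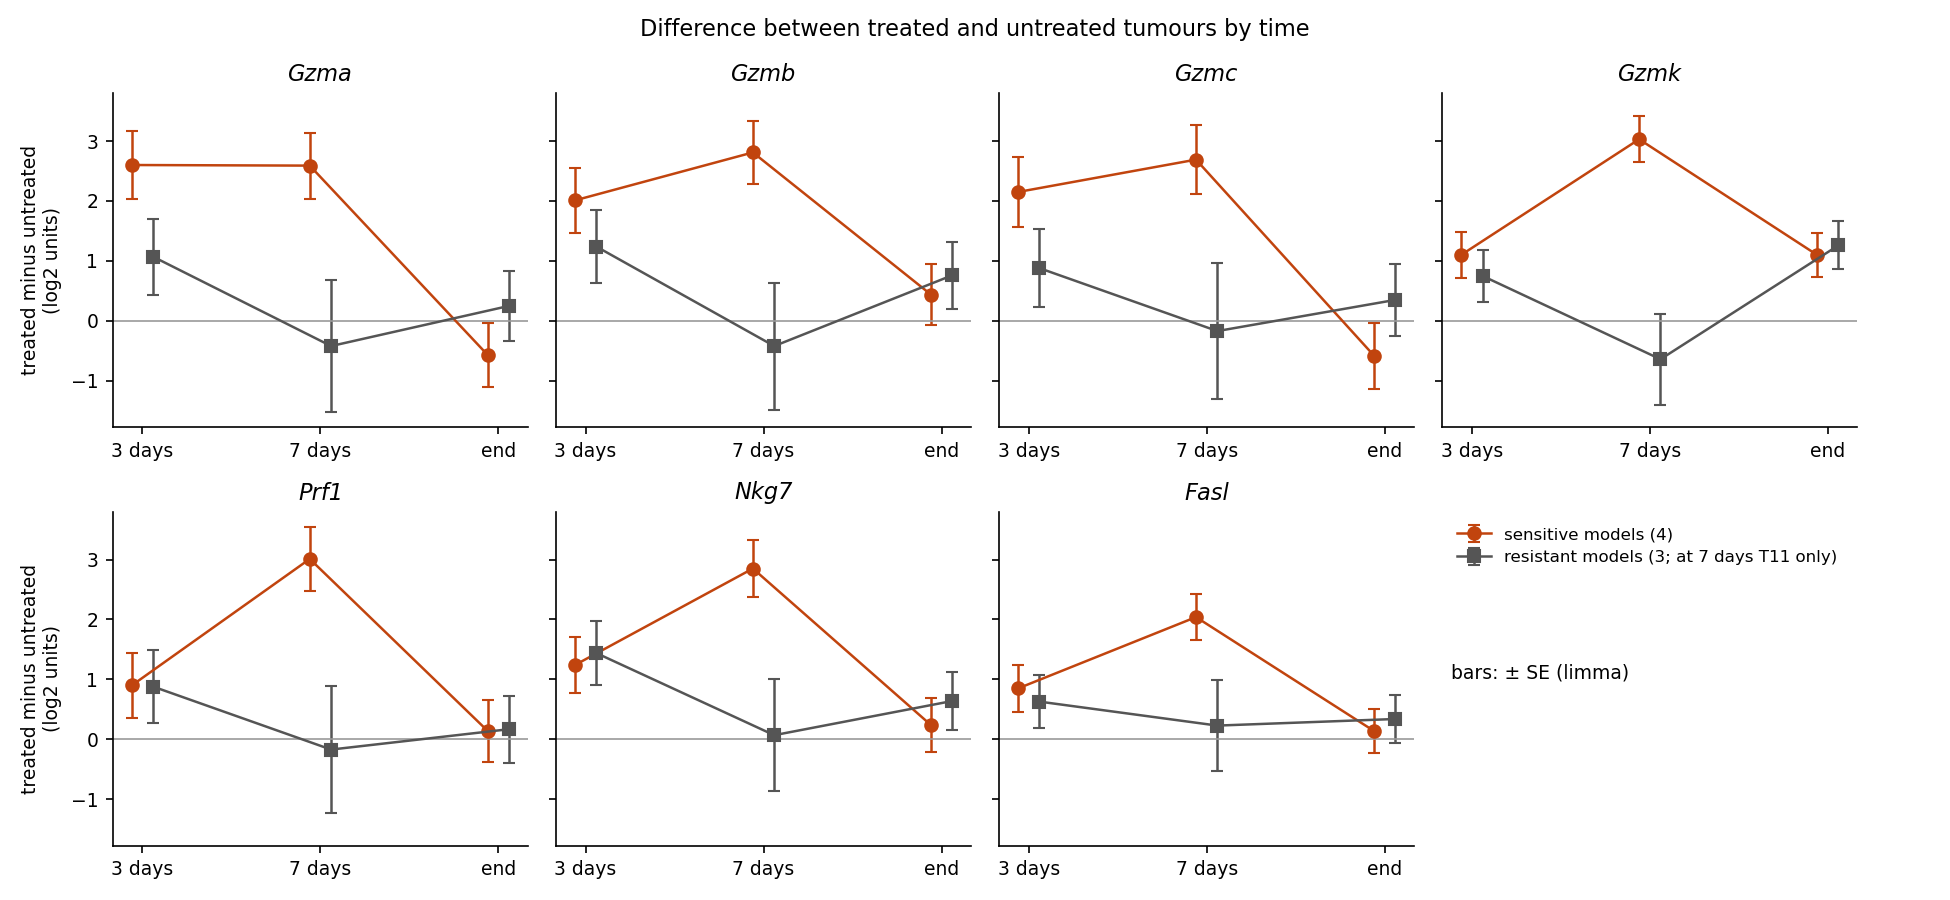
Difference between treated and untreated tumours in log2 units for each granule gene at 3 days, 7 days and end stage, as the mean over the 4 sensitive and the 3 resistant models (T11 alone at 7 days) with SE bars. In the sensitive class all 7 genes stand at 2.04 to 3.03 at 7 days and at -0.58 to 1.10 at end stage.

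Among untreated 3-day tumours 1 member was called between the classes. Gzmc averaged 7.48 over 5 sensitive and 3.95 over 7 resistant models, a difference of 3.53 ± 0.72 with models as replicates (adjusted p = 0.047), where 0.556% of all genes were called higher. Its model means were 5.46 to 8.65 in the sensitive and 2.17 to 5.24 in the resistant models, so that the classes did not overlap. The share of all genes without such overlap was not determined. Prf1 at 3.19 (adjusted p = 0.0547), Gzmb at 3.32 (0.0749) and Fasl at 2.45 (0.0843) missed the threshold, and Gzma at 0.33 and Gzmk at -0.00 were near 0. The resistant model p53-2153F had shallow libraries, at 3.45 to 30.58 M estimated reads. Of its 4 tumours Prf1 was listed at 0 in 2 and Fasl in 3. Derivatives of 1 parent are not independent models, and the Gzmc call was lost when any 1 of 10 of the 12 models was left out.

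Among derivatives at 3 days without therapy, T11-Apobec was above T11 in Gzmb by 3.82, Nkg7 by 3.29, Fasl by 2.65 and Gzmk by 2.31 (3.97% of all genes). KPB25L-UV was above KPB25L in Nkg7 by 2.78 and Fasl by 2.39 (8.43%), calls that were lost without the 6 libraries with T11 transcripts. No member was called for T11-UV against T11 (0.048%) or KPB25L-Apobec against KPB25L (2.75%). With a flow cell term none of these calls was left, and T11-Apobec and T11 untreated libraries came from different flow cells.

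Untreated KPB25L tumours at end stage held high Gzmc and Prf1 with little T cell RNA. Against untreated T11 at end stage, a comparison chosen after the values were seen, Gzmc was higher by 6.89 ± 0.97 (adjusted p = 1.04e-09), Prf1 by 4.98 ± 0.91 (1.63e-06) and Gzmb by 4.02 ± 0.90 (0.000108), where 20.7% of all genes were called higher. All 3 kept their call with a flow cell term. Gzma at -1.82, Gzmk at -1.07, Nkg7 at -0.22 and Fasl at 0.71 were not called. Gzmc was 11.30, 11.95, 10.26, 9.14, 9.85 and 11.81 in KPB25L and 3.77, 3.42, 4.41, 4.07 and 3.46 in T11. Prf1 was 8.99, 10.82, 8.50, 7.43, 7.50 and 9.93 in KPB25L and 4.15, 2.21, 3.91, 4.23 and 4.87 in T11. The lines did not overlap in either gene, and the share of all genes without overlap between these lines was not determined. Treated KPB25L tumours at end stage were similar, with means of 9.93 for Gzmc, 8.24 for Prf1 and 3.73 for Cd3e. In untreated KPB25L-UV at end stage these means were 9.16, 6.90 and 4.68. Untreated KPB25L already averaged 8.65 in Gzmc at 3 days, and no gene was called between 3 days and end stage (0%).

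The neighbours of Gzmc in the cluster followed it. Gzmd, Gzme, Gzmf and Gzmg were all called higher in KPB25L, with Gzmg at 9.99 to 13.54 in KPB25L and listed at 0 in all 5 T11 tumours. Cd3e averaged 4.14 in KPB25L and 4.66 in T11, and none of 6 T cell or 2 CD8 markers was called. Of the NK markers Klrb1c at 2.18 and Klre1 at 2.04 were called and Ncr1 at 0.85 and Klri2 at 1.05 were not. Mcpt8, a granule protease of basophils, was higher by 6.27 ± 0.77, with 8.08 in KPB25L and 1.81 in T11, while the 6 mast cell markers were lower by value, at -1.42 to -0.12, and not called. Ly6g, from a list of 4 neutrophil markers tested, was higher by 4.23, and the others of that list are not reported here. Of the epithelial markers 4 of 5 were higher, Epcam by 8.40. The part of these cell types in the result was not tested. The inhibitors Serpinb6b at 4.60, Serpinb9b at 2.99 and Serpinb9 at 1.99 were also higher in KPB25L.

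Untreated KPB25L-UV replicate 4 at end stage also held high Gzmc, at 11.45, with Prf1 at 10.06, Gzmb at 9.56 and Cd3e listed at 0. T cell RNA was not absent there, since no tumour of that group was below 2.00 in Cd3d or 4.56 in Cd3g. In treated KPB25L-UV replicate 3 at end stage, which had the highest Prf1 level of the series, 12.90, and Gzmc at 13.70, Cd3e was not low, at 8.24. At 3 days untreated KPB25L was above T11 in Gzmc by 3.88 ± 1.08 (20.4% of all genes) and was called lower in Gzma at -2.81 and Gzmk at -2.52 (12.2% called lower). None of these was called with a flow cell term, where the Gzma value was 2.80.

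**Figure D4:**
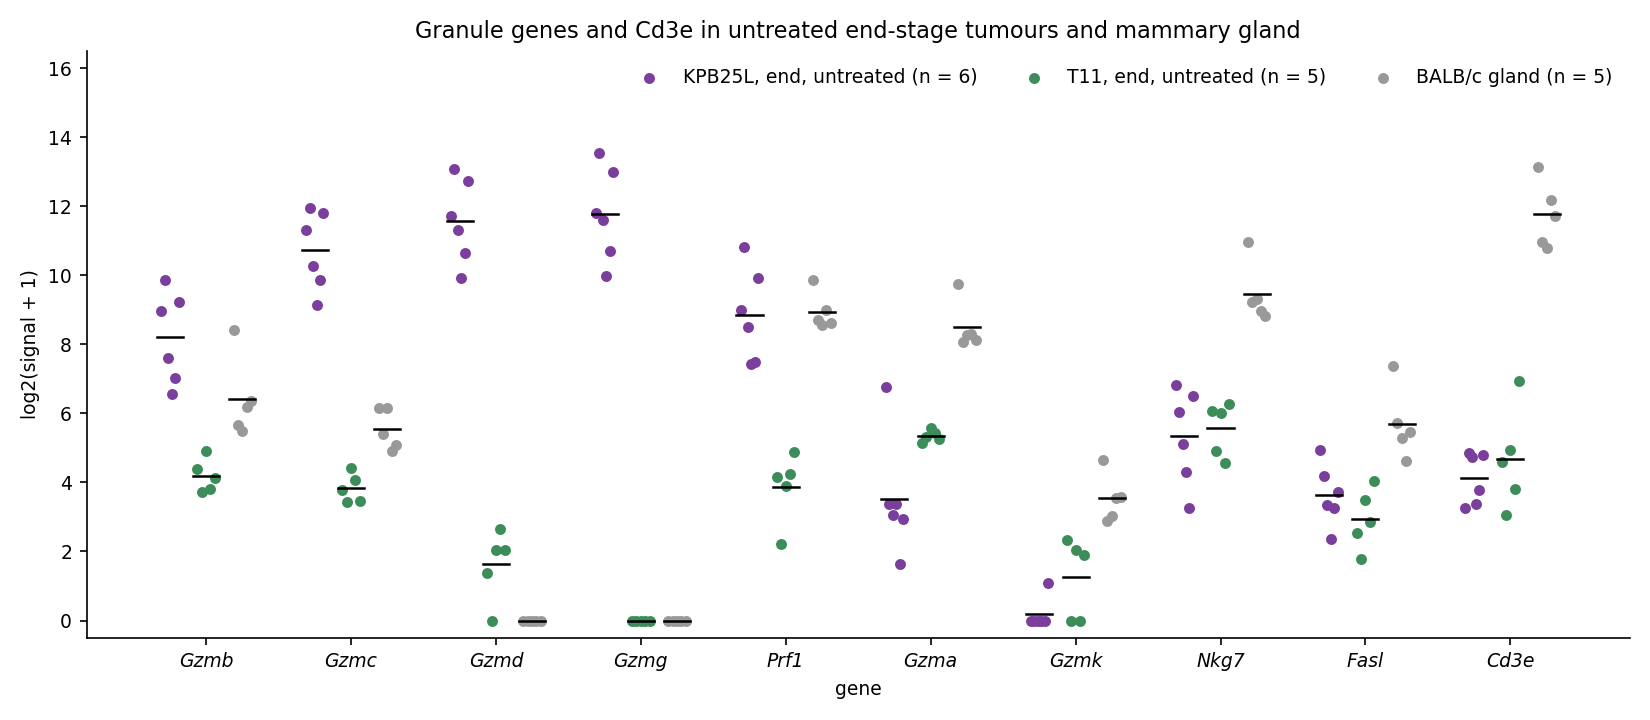
Level of the granule genes, cluster granzymes and Cd3e, as log2(signal + 1), in single untreated end-stage tumours of KPB25L and T11 and in BALB/c mammary gland, with bars for means. KPB25L is high in Gzmc (9.14 to 11.95), Prf1 and the cluster granzymes, while Cd3e is highest in the glands (10.80 to 13.13).

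End-stage tumours of 4 models of unknown response (C3-TAG, ILC-Pik3Ca/Cdh1Null, KPB-Primary and PyMT) held less of 5 members than the normal glands. The labels class all 4 as unknown, whereas the table's header marks C3-TAG as resistant. Tumours minus glands, the differences were Prf1 at -4.32 ± 0.45 (4.24 in tumours and 8.56 in glands), Gzma at -4.27 ± 0.44, Nkg7 at -3.84 ± 0.49, Fasl at -1.85 ± 0.35 and Gzmb at -1.48 ± 0.53, where 27.7% of all genes were called lower. Gzmc at 0.86 ± 0.62 and Gzmk at -0.05 ± 0.38 were not called. The highest Prf1 level among these tumours, in ILC-Pik3Ca/Cdh1Null, was 7.53, against 8.55 to 9.86 in 5 BALB/c glands and a median of 8.32 in 4 FVB glands, of which the lowest was 7.04. In the BALB/c glands Gzmk was 2.89 to 4.66 and in the FVB glands 0.00 to 1.01. The cluster granzymes Gzmd, Gzme and Gzmg were listed at 0 in all 9 glands, whose summed T cell markers had a level of 10.41 to 15.63 and whose fat cell markers one of 14.31 to 18.10, and the part of these cells in the result was not tested.

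Per kilobase of exon, the order of the members changed with the tissue. In treated T11-Apobec tumours at 7 days the mean log2 signal per kilobase was 12.06 ± 0.78 for Gzmb, 11.76 ± 1.66 for Gzmc, 11.53 ± 0.24 for Nkg7, 11.23 ± 1.05 for Gzma, 9.16 ± 1.38 for Prf1, 8.51 ± 0.45 for Gzmk and 6.86 ± 0.29 for Fasl (SD, n = 4). The first 4 lay within 1 SD of a neighbour, and Fasl stood below the rest. In untreated KPB25L at end stage the order was led by Gzmc at 10.88 ± 1.14, before Gzmb at 7.68 ± 1.33, Prf1 at 7.50 ± 1.34 and Nkg7 at 5.47 ± 1.39 (SD, n = 6). In BALB/c glands it was led by Nkg7 at 9.58 ± 0.86 and Gzma at 8.49 ± 0.70, and Gzmk was last at 3.12 ± 0.68 (SD, n = 5).

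The highest group means of 5 members were those of T11-Apobec under therapy at 7 days, with 12.58 for Gzmb, 8.98 for Gzmk, 10.53 for Prf1, 11.40 for Nkg7 and 7.81 for Fasl. Gzma at 12.17 and Gzmc at 11.86 were highest in the same model under therapy at 3 days. Gzmk was listed at 0 in 63 of 263 samples, and the other members in 3 to 11.

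Within groups, the members split in how they varied from tumour to tumour. Over the 192 fitted samples, as deviations from their group means, Gzma and Gzmb had Pearson r = 0.82, Gzmb and Prf1 0.82 and Gzma and Nkg7 0.82, while Gzmc and Gzmk had 0.03. Samples of a library batch and of a depth share part of such deviations, so the values are descriptions. The ranking within groups leaves out the members, predicted genes and T cell receptor or immunoglobulin segments. In it the genes most like Gzma were Il2rb (0.81), Ncr1 (0.79) and Serpina3g (0.77). Il2rb also came first for Gzmb (0.85), Prf1 (0.73) and Nkg7 (0.86). Gzmc instead was most like Gzmd (0.82), Gzme (0.81), Gzmf (0.70) and Gzmg (0.68), genes that share exon stretches with one another and, but for Gzmf, with Gzmc. Gzmk was most like Ltb and Cd8a (0.53 each), and Fasl most like Gbp5, Cd96 and Tbx21 (0.67 each). Over the 47 group means the leading genes were Gzmd for Gzmc (0.96), H2-Eb1 for Gzmk (0.91), Crtam for Prf1 (0.91) and Cd274, the PD1 ligand, for Fasl (0.94).

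**Figure D5:**
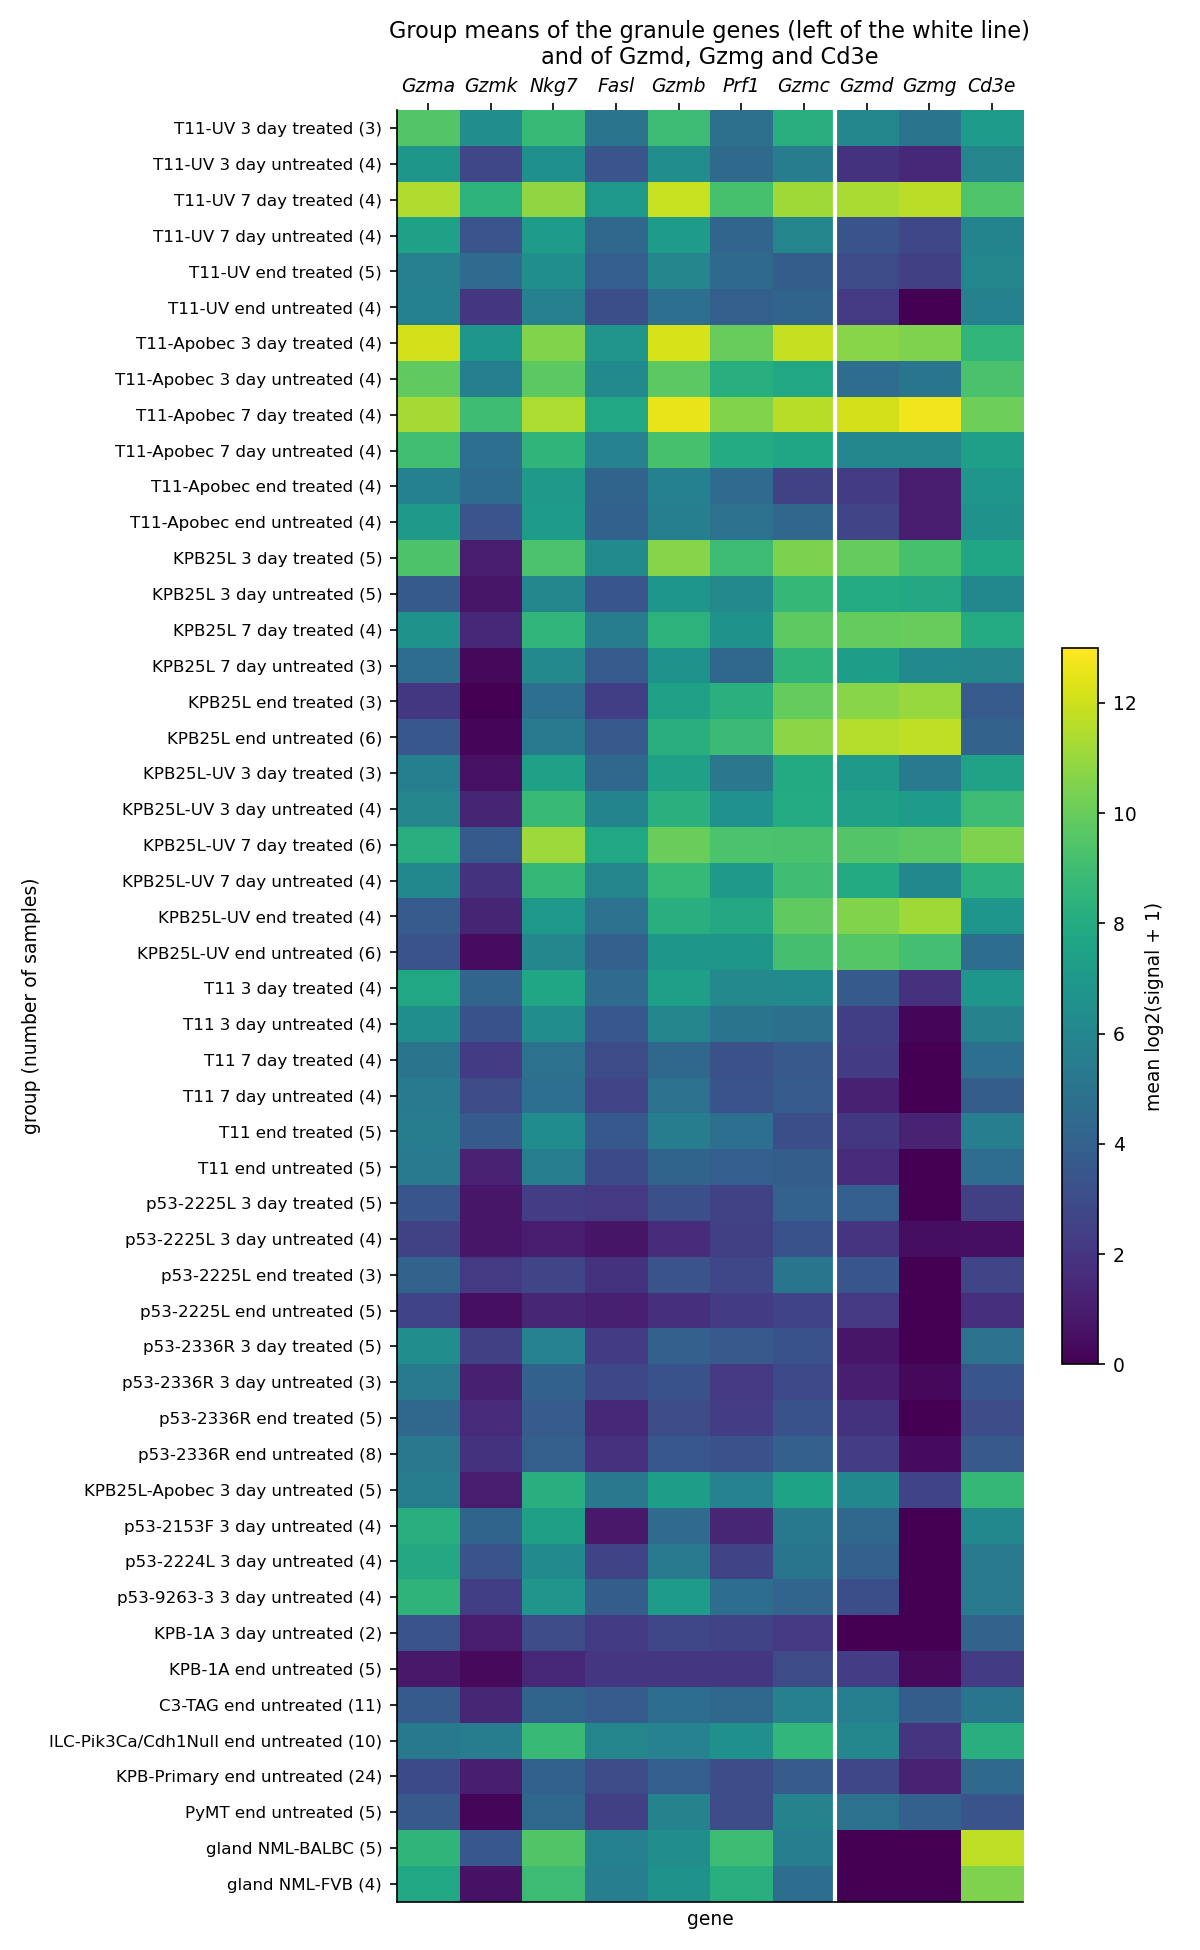
Mean log2(signal + 1) of the granule genes, and right of the white line of Gzmd, Gzmg and Cd3e, in each group of model, time and arm. Treated T11-Apobec at 7 days is high in all columns (Gzmb 12.58, Gzmk 8.98), and untreated KPB25L at end stage is high in Gzmc, Gzmd and Gzmg with Cd3e at 4.14.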

How the data were processed

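Per the labels' protocols, polyA-selected TruSeq libraries were read from both ends for 50 bases. The submitters' processing notes name the build mm10 and the tools Salmon, STAR, Picard and SAMtools, without versions, settings or annotation. The authors deposited a gene-level signal scaled by the upper quartile of each library, per the file headers, which was near the same value in all libraries (2036.876 to 2050.183 in tumours and glands). The values are not counts, and 27.2 to 83.5% of the low values of a library were whole reads, so no count test was used. Of 45724 entries, 39 with date names and 28 repeats were left out (0.21 to 0.457% of signal); 1 value column was not used.

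Levels are log2(signal + 1). Genes above 0 in at least 4 samples and in the upper 66.7% by mean were kept. limma 3.58.1 (R 4.3.3) with trend was fitted to 192 samples in 47 groups of model, time and arm, with Benjamini-Hochberg adjustment over 20849 genes and a threshold of 0.05. The 2 libraries of 1 KPB25L mouse were averaged. Models of a class were weighted equally. A contrast of 12 model means and a fit of 59 samples with glands (20754 genes) were made in the same way. In data simulated for the 7-day comparison of the sensitive models, 200 of 20849 genes were changed, 100 by log2 2 and 100 by log2 1. Of these, 90% of genes changed by log2 2 and 68% of those changed by log2 1 were recovered, with 9 false calls. The real comparison called a far larger share, 15.5% higher and 21.2% lower. Recovery at that share was not simulated. Nothing in the labels says that replicates of a model are more than mice carrying 1 line. Depth was 3.45 to 149.12 M estimated reads per library (M, mega), and 1 read was worth 0.42 to 19.61 units of signal, which bounds the counting precision; the SE holds the spread between tumours as well. Alternatives were a pseudocount of 16 or 0.1, no filter, median centring, a fit of the groups compared alone, a flow cell term, leaving out the 6 KPB25L-UV libraries with T11 transcripts, and leaving out each replicate or model. The contrasts of KPB25L with T11 and of KPB25L times were added after the data were seen. The members, gene lists and marker lists were chosen with earlier results of these data known. Genes named are the members, all tested genes of pathway lists of up to 8 (1 gene of the death receptor list is not reported here), the called genes with the smallest adjusted p of longer lists (up to 4 per direction), and genes most like a member; cell type markers were named after their values were seen. Python 3.11.15, pandas 2.3.3, NumPy 2.4.6 and matplotlib 3.10.9 were used. The 13 exome samples were not analysed here.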

Additional observations from a re-analysis of the deposited data

Results flagged for a closer look

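Single samples stood apart from their group by a gap test in 11 of 224 combinations of gene and group, over 32 groups; chance alone gives about 1 in 20. In untreated T11-UV at 7 days replicate 1 was high in Gzma at 9.47 (next 6.85), Gzmc at 7.93 (next 5.46) and Nkg7 at 9.15 (next 6.64). In T11 at 7 days replicate 2 was low, in Gzmk at 2.13 (next 2.38) in treated tumours, and in Gzmk at 2.44 (next 3.12) and Fasl at 1.47 (next 2.99) in untreated ones. In untreated end-stage KPB25L, Gzma was high in replicate 1 at 6.75 (next 3.38) and Gzmk in replicate 6 at 1.08 (next 0.00). Gzma was low in untreated end-stage KPB25L-UV replicate 3 at 2.17 (next 3.38), Fasl in treated end-stage T11-UV replicate 4 at 1.47 (next 4.00) and Gzmk in untreated 3-day p53-2225L replicate 4 at 0.00 (next 0.98).

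The effect of therapy in the sensitive models differed between end stage and 7 days, by a test of the difference itself, for Gzma (-3.16), Gzmb (-2.37), Gzmc (-3.27), Gzmk (-1.93), Prf1 (-2.88), Nkg7 (-2.61) and Fasl (-1.90). The effect on Gzmk at 7 days differed from that in T11 by 5.58 in T11-UV and by 4.86 in T11-Apobec, comparisons that share the T11 tumours. At 7 days every treated T11 tumour was below every untreated one in Gzmk, at a difference of -0.64, while every treated tumour of T11-UV and T11-Apobec was above; this opposite direction as such was not tested apart from those interactions.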

How the results depend on the processing

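No paired analysis was possible because the labels pair no mice across the groups compared, and the replicate numbers follow accession order. All 7 members stayed called at 7 days in the sensitive models in all 49 alternatives. The counts below are of members called, and the share of all genes called under each alternative is not reported here. They show whether calls were kept and do not set the members against all genes. With a pseudocount of 16 the class difference at 7 days had 1 (0 as reported), the difference of the 7-day and 3-day effects 1 (0), T11-UV at 3 days 2 (1), T11-Apobec at 3 days 1 (0), KPB25L-UV at 7 days 4 (2), T11-UV and T11-Apobec minus T11 4 and 3 (1 each), KPB25L minus T11 at 3 days 1 (3), the sensitive models relative to Cd3 1, lower (0), and the untreated classes 0 (1). With a pseudocount of 0.1 there were 0 for T11-UV at 3 days, KPB25L-UV at 7 days, both derivatives minus T11 and untreated KPB25L-UV minus KPB25L (2), and 1 each for untreated T11-Apobec minus T11 (4), 7 minus 3 days in treated tumours (4) and end minus 7 days in untreated tumours (4). Without the filter there was 1 for the class difference at 7 days and for KPB25L-UV at 7 days, and 0 for the untreated classes, as also with median centring. With the groups compared alone there were 0 at 3 days in the sensitive models (4), T11-UV and KPB25L (5), 0 for KPB25L-UV at 7 days, untreated KPB25L-UV minus KPB25L and 7 minus 3 days in treated tumours, 6 and 7 for T11-UV and T11-Apobec minus T11, and 7 for untreated T11-Apobec minus T11. With a flow cell term there were 0 at 3 days in the sensitive models and KPB25L, 1 at 3 days in the resistant models (0), and 0 for T11-UV at 7 days (7), T11-UV minus T11, untreated T11-Apobec and KPB25L-UV minus their parents and KPB25L minus T11 at 3 days. Without the 6 KPB25L-UV libraries there was 1 for the class difference at 7 days, the difference of the 7-day and 3-day effects and T11-Apobec at 3 days, 4 for KPB25L-UV at 7 days and T11-UV minus T11, and 0 for untreated KPB25L-UV minus KPB25L and end minus 7 days in untreated tumours. The untreated class call on Gzmc was lost (0) without any 1 of 10 models, while 4 members were called without T11 and 2 without T11-UV. The causes were not tested.

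Leaving out each replicate gave 7 to 7 called at 7 days in the sensitive models, 0 to 1 for the class difference, 0 to 4 at 3 days in the sensitive models, 0 to 1 for the difference of the 7-day and 3-day effects, 6 to 7 for that of end stage and 7 days, 0 to 5 for T11-UV and for KPB25L at 3 days, 6 to 7 for T11-UV, 3 to 5 for T11-Apobec and 0 to 4 for KPB25L-UV at 7 days. It gave 1 to 3 for T11-UV and 1 to 1 for T11-Apobec minus T11, 0 to 3 for untreated T11-Apobec and 0 to 2 for KPB25L-UV and KPB25L-Apobec minus their parents, 1 to 4 for 7 minus 3 days and 7 to 7 for end minus 7 days in treated tumours, 0 to 5 for end minus 7 days in untreated tumours, and 3 to 4 at end stage and 1 to 3 at 3 days for KPB25L minus T11. The other results recomputed without single replicates ran from 0 to 0; the gland comparison, not recomputed so, kept 5 in its 5 alternatives. Among values called with or without an alternative, 2 turned sign: Gzma in untreated KPB25L minus T11 at 3 days was 2.80 with a flow cell term (-2.81 as reported), and Gzmk in tumours minus glands was 1.40 with FVB glands alone (-0.05).

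Most groups held 3 to 6 tumours and T11 was the sole resistant model at 7 days, which limits the class comparison. Levels near 0, such as those of Gzmk in KPB25L, are set by few reads. In the 4 untreated 3-day p53-2153F libraries, the shallowest among them, 1 read was worth 1.77 to 19.61 units of signal. There Prf1 was listed at 0 in 2 libraries, Fasl in 3 and Gzmk in none.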

Other observations

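Among tumours that stand alone in their group, 1 end-stage tumour each of p53-2151 and p53-2245 had Gzmc at 11.01 and 10.55, Prf1 at 7.93 and 9.02 and Gzmd at 11.71 and 11.72, with Cd3e at 2.09 and 1.99. With 1 tumour each there is no replicate and no test.

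In the 10 ILC-Pik3Ca/Cdh1Null tumours Gzmc spanned 6.24 to 9.88 with a median of 8.82, and Nkg7 spanned 7.22 to 10.56 with a median of 9.02. Cultured lines, 6 in number, had 0 to 2.25 units of signal for the members, and 31 of 42 values were at 0; that table was scaled separately from the tumour table.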
